A study of Mus musculus with 10 samples.

Results

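The 10 core genes of the circadian clock (Per1, Per2, Per3, Cry1, Cry2, Arntl, Clock, Nr1d1, Nr1d2 and Dbp) were followed in whole hearts of mouse embryos on Affymetrix arrays. Members were all probe sets that the platform annotation gives a single symbol, that symbol being 1 of these 10. This gave 23 of the 45101 probe sets and controls in the table, and all 10 genes among 18193 genes. Where a gene had several probe sets, the brightest by its mean signal stood for it. The genes were put together with the genotype differences of these arrays known. Their differences between genotypes, and the calls and p-value counts given for them below, are therefore a description and support for nothing.

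All pools came from female embryos at 13.5 days post coitum, 5 pools heterozygous for a heart-conditional Hccs knockout and 5 of control littermates, each of 4 to 5 hearts and each on its own array. Hccs is an X-linked gene for the mitochondrial enzyme that joins haem to cytochromes of the c type, and X inactivation makes a heterozygous female heart a mosaic of cells with and without it. The Cre driver, the alleles that the controls carry and the clock time of collection are not given in the sources used here. A pool is whole tissue, so fewer cells of a type and less RNA per cell cannot be told apart.

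The circadian clock is a transcriptional loop that repeats about once a day. CLOCK and its partner ARNTL (also called BMAL1) bind E-box sequences and activate the Per and Cry genes, whose proteins return to the nucleus and repress them. In a side loop the nuclear receptors NR1D1 and NR1D2 (REV-ERB alpha and beta) repress Arntl, and DBP, an output factor, acts through D-box sequences. Embryonic tissues are known to have weak or unsynchronised rhythms, while in the adult heart these genes cycle strongly.

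Hccs had log2 signals of 10.81, 10.73, 10.90, 10.57 and 10.39 in knockout replicates 1 to 5 and of 11.11 to 11.31 in the controls (exact two-sided permutation p = 0.00794, the smallest that 5 against 5 arrays allow). Cardiomyocyte markers (Tnnt2, Myh6, Myh7, Actc1, Nppa) were bright in every array, with list means of 15.46 to 15.58 in controls and 15.25 to 15.47 in knockouts. Of these 5 markers 4 had a negative difference, 3 had an unadjusted p under 0.05 and 1, Myh7, fell. By limma 0 of 31 measured markers of 7 other cell types passed, with an unadjusted p under 0.05 for 6. These 6 were all lower in knockouts: Acta2, Cnn1, Alas2 and 3 of 5 endothelial markers, whose list means were 9.22 to 9.49 in controls and 9.08 to 9.30 in knockouts. The part of cardiomyocytes and these other cells in the results on the clock genes was not tested. The liver markers Alb, Afp and Apoa1 varied most, with list means of 4.63 to 8.14 in controls and 4.56 to 10.31 in knockouts, highest in knockout replicates 4 and 5. The 18S ribosomal RNA control probe set read 8.06 to 11.4 in controls and 7.84 to 8.57 in knockouts, and its part in the results was not tested. As a guide to background, 20 probe sets of Y-linked genes read 1.75 to 3.72 in these female hearts, with a median of 2.62.

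Promoters of 9 of the 10 genes (all but Per2), 250 bases before to 50 after the start site, were taken from RefSeq (GRCm38.p6). They are shown for Per1, Per3 and Cry1, because knockout and control arrays did not overlap for these genes and because each promoter holds a clock element. Capitals mark an E-box (CACGTG), a D-box (TTATGTAA or its complement TTACATAA) or the core letters of the binding site of the REV-ERB and ROR receptors (AGGTCA or its complement TGACCT). The windows are chr11:69098699-69098998 on the plus strand for Per1, chr4:151044616-151044915 on the minus strand for Per3 and chr10:85185005-85185304 on the minus strand for Cry1.
Per1: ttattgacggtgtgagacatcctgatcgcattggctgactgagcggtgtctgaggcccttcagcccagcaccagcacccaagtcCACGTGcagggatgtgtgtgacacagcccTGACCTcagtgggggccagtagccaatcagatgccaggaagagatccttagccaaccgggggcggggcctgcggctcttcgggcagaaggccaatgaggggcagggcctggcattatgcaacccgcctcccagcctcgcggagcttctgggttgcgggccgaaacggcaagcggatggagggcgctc
Per3: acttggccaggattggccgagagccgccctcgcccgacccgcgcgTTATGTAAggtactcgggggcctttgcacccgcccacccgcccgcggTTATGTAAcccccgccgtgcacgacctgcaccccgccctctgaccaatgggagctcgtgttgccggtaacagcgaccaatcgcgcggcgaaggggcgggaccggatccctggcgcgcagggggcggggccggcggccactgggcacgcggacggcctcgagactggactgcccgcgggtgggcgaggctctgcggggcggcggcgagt
Cry1: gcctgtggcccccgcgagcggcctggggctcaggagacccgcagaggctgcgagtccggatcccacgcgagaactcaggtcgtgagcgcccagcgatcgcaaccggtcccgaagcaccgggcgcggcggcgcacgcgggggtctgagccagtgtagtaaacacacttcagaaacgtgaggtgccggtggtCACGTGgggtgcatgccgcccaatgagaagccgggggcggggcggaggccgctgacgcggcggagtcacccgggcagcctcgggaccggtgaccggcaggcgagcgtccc
The E-box begins 166 bases upstream of the start in Per1 and 60 bases upstream in Cry1. The D-boxes of Per3 begin 205 and 158 bases upstream. Searched on both strands, an E-box was in 7.15% of 32851 promoter windows, a D-box in 0.938%, at least 2 D-boxes in 0.0213% and the receptor core in 16.3%. Of the 13 windows of the clock genes, 2 held an E-box, 1 a D-box and 4 the receptor core (those of Per1, Clock, Arntl and Nr1d2). The E-box and D-box motifs share no bases in these windows, and the other Per1 window held none of the 3 motifs. A match describes the letters only and shows no binding.

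Among the Period genes, which encode the repressors that pace the loop, Per1 and Per3 were lower and Per2 was higher in the knockout hearts. The log2 signal of Per1 was 4.65, 4.12, 4.65, 4.46 and 4.57 in control replicates 1 to 5. In the knockout replicates it was 3.08, 3.75, 3.97, 3.82 and 3.79. Every knockout array lay under every control array, with knockout replicate 1 lowest by a wide gap. The difference on the log2 scale was -0.81 (SE 0.17, 95% interval -1.19 to -0.43), and -0.66 without knockout replicate 1. The knockout mean of 3.68 ± 0.35 (SD, n = 5) was no higher than the brightest Y-linked probe set, so the true size of the difference is not known.

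Per3 read 5.09, 5.35, 5.06, 5.50 and 5.08 in control replicates 1 to 5. The knockout replicates read 4.78, 4.71, 4.83, 4.46 and 3.97, all under the lowest control. The log2 difference was -0.66 (SE 0.17, 95% interval -1.04 to -0.29). The other 5 probe sets of Per3 had means of 1.97 to 3.02, within the range of Y-linked probe sets, and log2 differences between -0.11 and 0.079, so the decrease rests on probe set 1421087_at alone.

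Per2, the paralogue whose loss most disturbs the clock of the mouse, lay on the other side. Its log2 signal was 4.67, 4.54, 4.38, 4.61 and 3.57 in control replicates 1 to 5. In the knockout replicates it was 4.84, 5.08, 4.79, 4.72 and 5.04. The groups did not overlap, but the highest control and the lowest knockout were close to each other. The log2 difference was 0.54 (SE 0.20, 95% interval 0.10 to 0.98). It was 0.35 without control replicate 5, the array that stood low. Its other 2 probe sets, with means of 2.36 and 1.55, read no more than the median of the Y-linked probe sets and differed by 0.0069 and -0.018.

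Of the cryptochromes, the strongest repressors of CLOCK and ARNTL, Cry1 was higher in the knockout hearts and Cry2 differed little. Of the 6 clock genes with a mean log2 signal above 6, Cry1 alone had groups that did not overlap. It read 8.71, 8.62, 8.33, 8.67 and 8.38 in control replicates 1 to 5. The knockout replicates read 8.83, 9.01, 9.15, 9.08 and 9.10, all above the highest control. The signal was 1.40-fold higher, a log2 difference of 0.49 (SE 0.090, 95% interval 0.29 to 0.69), and from 0.44 to 0.54 with any 1 array left out.

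Cry2 read 7.75, 7.79, 7.83, 7.39 and 7.91 in control replicates 1 to 5 and 7.68, 7.74, 8.03, 7.88 and 7.98 in the knockouts. The groups overlapped, and the log2 difference was 0.13 (SE 0.11, 95% interval -0.11 to 0.36). It was 0.041 without control replicate 4, the lowest array.

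**Figure D1:**
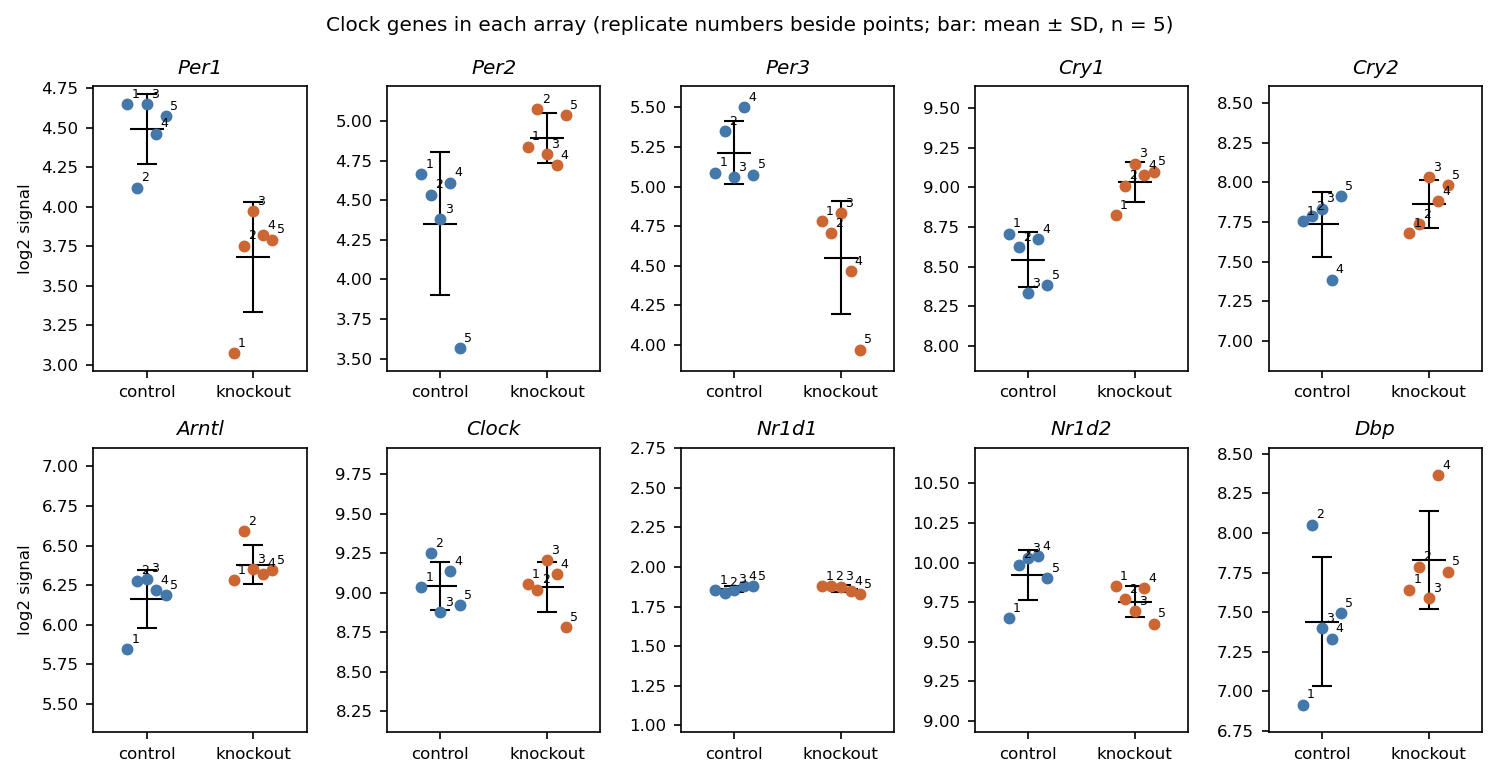
Log2 signal (y axis, each panel spanning 1.8 log2 units) of the probe set that stood for each clock gene in the 5 control arrays (blue) and 5 knockout arrays (orange), with the replicate number beside each point and bars for the mean ± SD. For Per1 and Per3 the 5 knockout points lie below the control points and for Per2 and Cry1 above them, while the other 6 genes overlap.

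Arntl and Clock encode the activating pair. Arntl read 5.85, 6.28, 6.29, 6.22 and 6.18 in control replicates 1 to 5. It read 6.28, 6.59, 6.35, 6.32 and 6.35 in the knockouts, so that the groups overlapped only narrowly. The log2 difference was 0.22 (SE 0.092, 95% interval 0.0087 to 0.42), and it was 0.14 without control replicate 1, which stood low. The second Arntl probe set, at 1.97 in controls and 1.98 in knockouts, read no more than Y-linked probe sets.

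The brightest Clock probe set, 1418659_at, read 9.04 ± 0.15 in controls and 9.04 ± 0.16 in knockouts (SD, n = 5 each), with a log2 difference of -0.0068 (95% interval -0.21 to 0.20) that took either sign, from -0.050 to 0.056, with 1 array left out. Of the other 3 Clock probe sets, 1 stood apart. Probe sets 1418660_at and 1435775_at differed by -0.17 (SE 0.14) and -0.098 (SE 0.16), with intervals that include 0. Probe set 1439314_at read 5.66, 5.60, 5.64, 4.59 and 4.98 in control replicates 1 to 5 and 4.61, 4.25, 4.72, 4.39 and 4.69 in the knockouts. Its log2 difference was -0.76 (SE 0.22), with control replicate 4 among the knockouts. The transcript forms that these probe sets read are not given in the sources used here.

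The receptors of the side loop differed in how well they were measured. Nr1d1 read 1.83 to 1.88 in all 10 arrays, under the median of the Y-linked probe sets, so the array gave no usable level for this gene. Nr1d2 was bright, at 9.65, 9.99, 10.03, 10.04 and 9.90 in control replicates 1 to 5 and 9.85, 9.77, 9.69, 9.84 and 9.61 in the knockouts. The groups overlapped through control replicate 1, and the log2 difference was -0.17 (SE 0.080, 95% interval -0.35 to 0.010). The dimmer Nr1d2 probe set, 1416959_at, pointed the other way, from 4.92 ± 0.07 in controls to 5.11 ± 0.19 in knockouts (SD, n = 5 each).

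Dbp, a target of CLOCK and ARNTL that is often used as a readout of the clock, read 6.92, 8.05, 7.40, 7.33 and 7.50 in control replicates 1 to 5. The knockout replicates read 7.64, 7.79, 7.59, 8.36 and 7.76. Control replicates 1 and 2 and knockout replicate 4 stood off from the rest of their groups, and the groups overlapped. The log2 difference was 0.39 (SE 0.21, 95% interval -0.079 to 0.86). It was 0.26 without control replicate 1 and 0.25 without knockout replicate 4. The second Dbp probe set, 1418174_at, read 6.67 ± 0.21 in controls and 6.67 ± 0.17 in knockouts (SD, n = 5 each). There control replicate 1, at 6.79, was not low. Control replicate 2, at 6.85, and knockout replicate 4, at 6.89, were the highest of their groups.

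**Figure D2:**
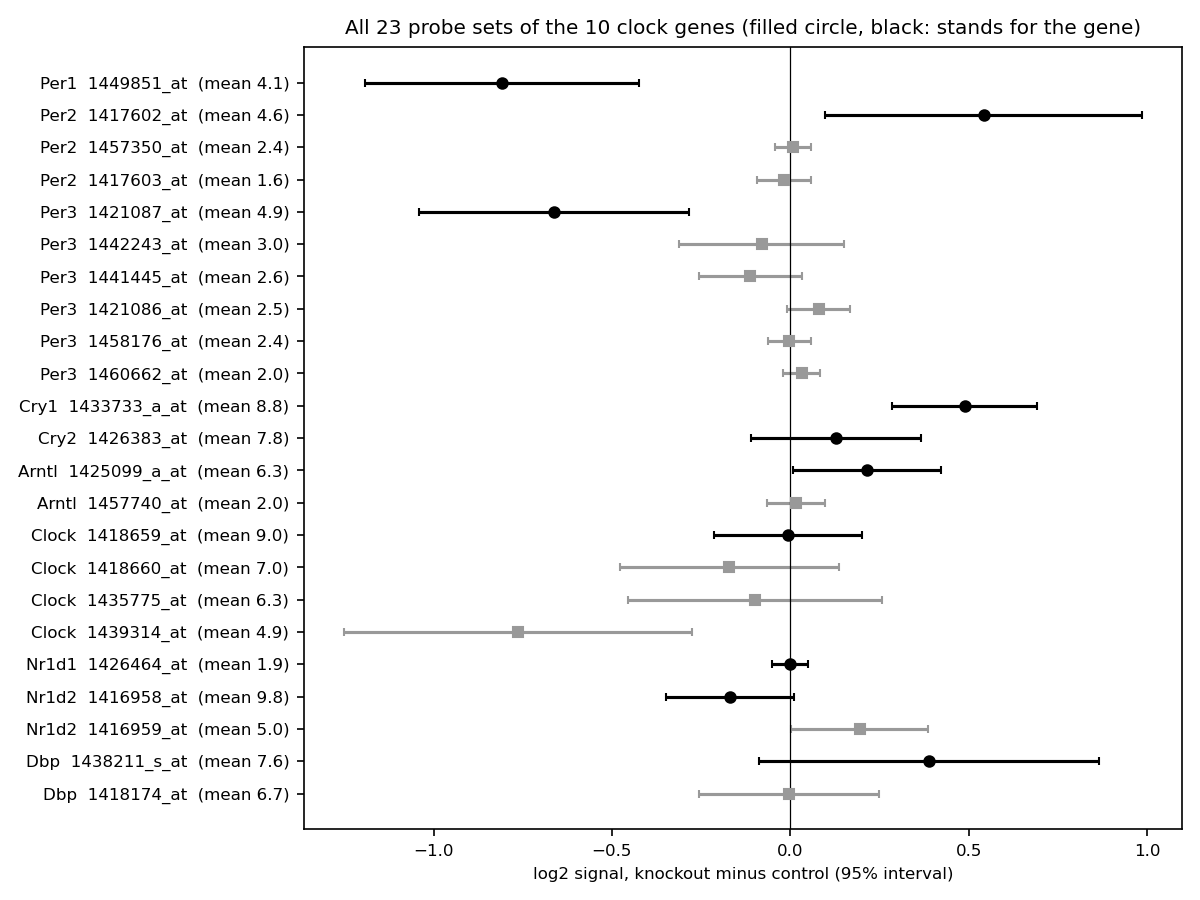
Log2 difference, knockout minus control, with its 95% interval (x axis) for all 23 probe sets of the 10 clock genes (y axis, with the mean log2 signal over 10 arrays). Black circles stand for their gene and grey squares are the other probe sets. The grey ones of Per2, Per3 and Arntl are dim and lie near 0, 1 of the 3 of Clock lies at -0.76, and those of Nr1d2 and Dbp lie at 0.19 and -0.0038.

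In the limma fit over all genes (adjusted p under 0.05 by Benjamini-Hochberg), 1 of the 10 clock genes was past the threshold in the lower direction, Per1, where 0.945% of all genes were. In the higher direction 1 was, Cry1, against 1.63% of all genes. An unadjusted p under 0.05 in either direction was seen for 5 of the 10, against 20.6% of all genes. Since that contrast was in view when the genes were chosen, nothing is read from these counts. The arrays of the 2 genotypes did not overlap for 2 clock genes that were lower and 2 that were higher, against 1.92% and 3.86% of all genes. Of the 10 genes 5 had a negative difference, as did 39.5% of all genes, and the median log2 difference was 0.064, beside 0.025 over all genes. Over probe sets, limma put 0 of the 23 past the threshold in the lower direction (0.318% of all were), with an unadjusted p under 0.05 in that direction for 3 (6.35% of all), and 1 was in the higher direction (0.822%). Groups did not overlap for 2 lower and 2 higher probe sets, against 1.47% and 3.79% of all probe sets.

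Neither call was stable to the choice of arrays. Per1 was past the threshold in 1 of the 10 fits with 1 array left out, the one without knockout replicate 1. Cry1 was in 4 of the 10, and not without control replicates 2 and 3 or knockout replicates 2, 3, 4 and 5. With replicate 3 of each genotype removed, neither was. Without knockout replicates 4 and 5, the pools with the highest liver marker signals, neither was past the threshold, and the differences were -0.89 for Per1 and 0.45 for Cry1. Per3 there differed by -0.44 and Per2 by 0.55.

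The rest of the clock machinery was described from lists chosen by function, beside lists of immediate early and glucocorticoid-induced genes. All were chosen with earlier results of these data known. Of the 49 measured genes of all these lists 1 passed, the glucocorticoid-induced Sgk1, where 2.58% of all genes did. Of 10 measured clock-linked transcription factors none passed by limma. An unadjusted p under 0.05 was seen for 2 (and for 20.6% of all genes), and the median log2 difference was -0.11. Bhlhe40, the brightest of them and a repressor that competes for E-boxes, differed by -0.33 (SE 0.14). Without knockout replicate 5, the array that stood high, Bhlhe40 differed by -0.46 and passed (limma adjusted p = 0.0389). Rora, an activator of Arntl and chosen after its value was seen, differed by -0.53 (SE 0.21), from 6.26 ± 0.34 in controls to 5.73 ± 0.40 in knockouts (SD, n = 5 each). Tef and Hlf, the relatives of Dbp, and Nfil3, the repressor that binds the same D-boxes, were also chosen after their values were seen. They differed by -0.14 (SE 0.072), -0.39 (SE 0.24) and 0.068 (SE 0.10). Npas2, which can replace Clock and was likewise chosen after its value was seen, read 3.31 ± 0.14 in controls and 3.41 ± 0.15 in knockouts, within the range of Y-linked probe sets.

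Of 10 measured enzymes that modify or degrade clock proteins none passed by limma, with an unadjusted p under 0.05 for 3. Their median log2 difference was -0.012. Fbxw11, the brightest, a ubiquitin ligase subunit that recognises PER proteins, differed by -0.051 (SE 0.035). The unadjusted 3 were named after their values were seen. Prkaa2 and Prkaa1, catalytic subunits of the AMP-activated kinase that marks cryptochromes for degradation, differed in opposite directions, by -0.60 (SE 0.15) and 0.41 (SE 0.13). Sirt1, a deacetylase of clock proteins, differed by 0.33 (SE 0.11).

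By limma 0 of 9 clock output genes passed, and 0 had an unadjusted p under 0.05. Their median log2 difference was -0.014. Pdk4, the brightest and a kinase that restrains pyruvate oxidation, differed by 0.020 (SE 0.099), with a sign that turned under quantile normalization. Wee1, a cell cycle kinase with E-boxes in its promoter, was chosen after its value was seen and differed by -0.14 (SE 0.082).

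Per1 is also induced by acute signals, so 2 further lists were set beside it. By limma 0 of 12 immediate early genes passed, with an unadjusted p under 0.05 for 3. These 3 were named after their values were seen. Dusp1 differed by -0.33 (SE 0.091), Egr2 by 0.23 (SE 0.096) and Junb, which read within the range of Y-linked probe sets, by 0.17 (SE 0.063). The median log2 difference of the 12 genes was 0.0084. Jun, the brightest, differed by 0.081 (SE 0.066). Fos, chosen after its value was seen, read 7.65 ± 0.68 in controls and 7.31 ± 0.12 in knockouts (SD, n = 5 each). Control replicate 4 read 8.85 and the other controls 7.14 to 7.49, beside 7.18 to 7.50 in knockouts. That array was also the highest for Egr1, at 9.42, and Nr4a1, at 9.40, both named after their values were seen. Of 8 glucocorticoid-induced genes 1 rose and the median log2 difference was 0.0047. The gene that rose was Sgk1, a kinase gene with many inducers, from 9.80 ± 0.12 to 10.40 ± 0.14 (SD, n = 5 each, limma adjusted p = 0.0137). Its log2 change was 0.60 (SE 0.078), and it was called in each of the 10 fits that left out an array. The call was lost without replicate 3 of each genotype (limma adjusted p = 0.0714) and without knockout replicates 4 and 5 (limma adjusted p = 0.0554), and over all its alternatives the adjusted p ran from 0.00499 to 0.0714. Tsc22d3, the brightest that did not pass, differed by -0.13 (SE 0.13), from -0.24 without knockout replicate 2 to -0.058 without knockout replicate 5, and Fkbp5, chosen after its value was seen, by 0.0098 (SE 0.077).

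**Figure D3:**
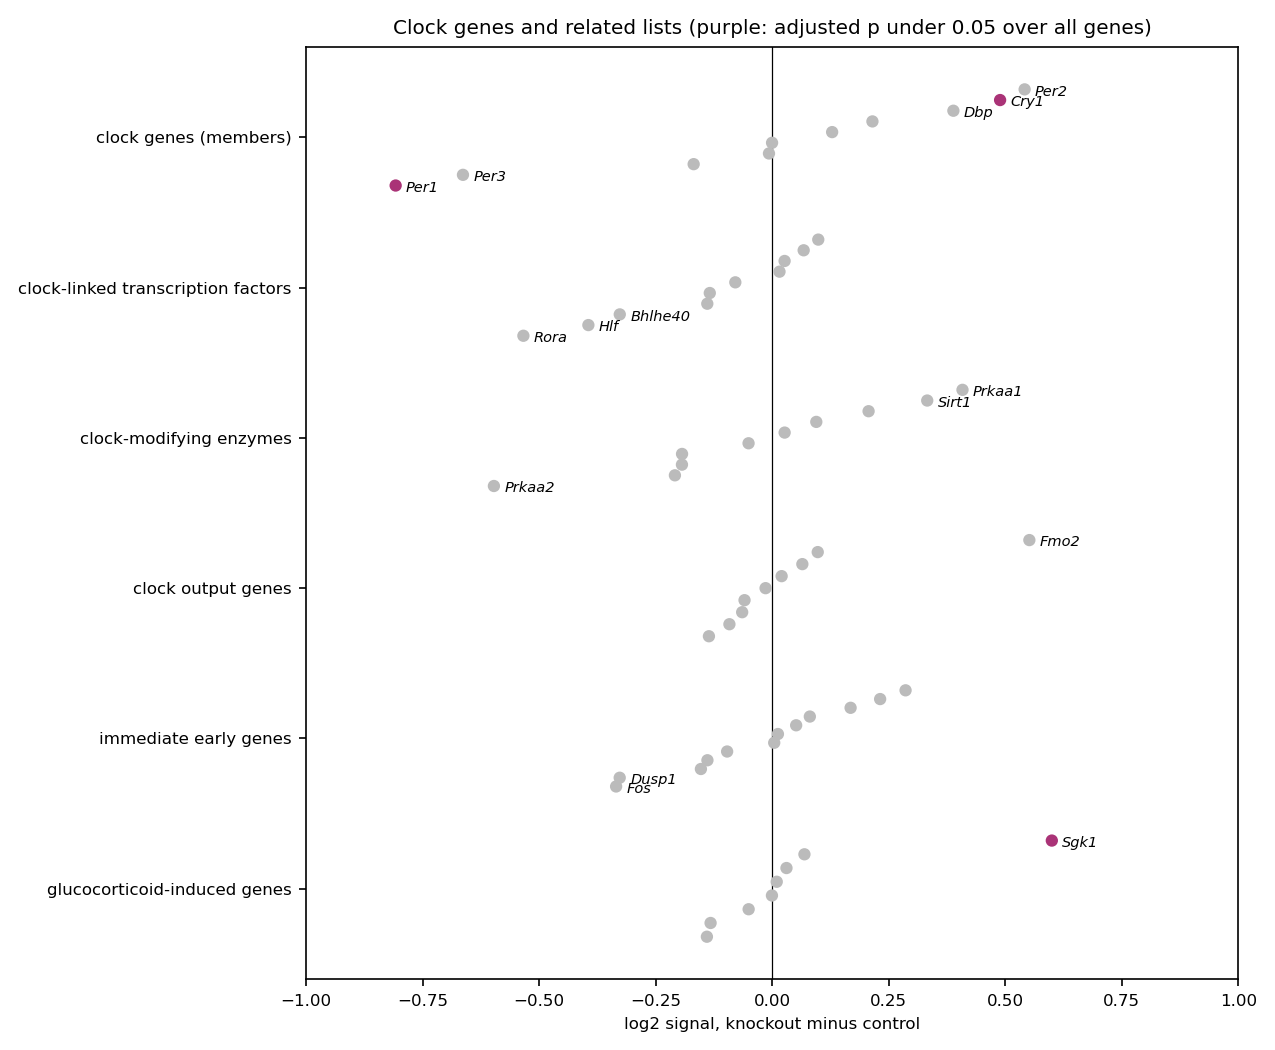
Log2 difference, knockout minus control (x axis), for each clock gene and each measured gene of 5 related lists (y axis), with names for differences over 0.3 in size. Purple points had an adjusted p under 0.05 over all genes, which in the related lists was Sgk1 alone.

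Variation between pools of the same genotype was looked at separately, since it does not use the genotype difference. The SD around the genotype means was ranked among the 1001 genes nearest in mean level. Dbp, with an SD of 0.36 for probe set 1438211_s_at, was at percentile 93.9, the highest of the clock genes. Its other probe set, 1418174_at, was not ranked and had SDs of 0.21 in controls and 0.17 in knockouts. Per2 was at percentile 71.2 and Per1 at 66.8, while Cry1 (48.4), Nr1d2 (48.6) and Arntl (21.5) were near or below the middle. The median over the 10 genes was percentile 55.7, beside 49.9 over all genes. It includes Nr1d1 (8.93), whose level was not usable.

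Deviations from the genotype mean were also compared between clock genes across the 10 arrays, as a description. Each gene was read by the probe set that stood for it, and r was not computed for the others. Nr1d1 was left out, since its level was not usable. Of the 36 pairs of the other 9 genes 17 had a positive Pearson r, and the median was -0.026. Over all arrays the highest was that of Per3 and Clock (r = 0.80, rho = 0.77), both lowest in knockout replicate 5, and r was 0.65 without the 2 arrays farthest from the median of Per3. Knockout replicate 5 was not the lowest array in any other Clock probe set. It read 6.77 in 1418660_at, where knockout replicate 2 read 6.63. In 1435775_at it read 5.99, where knockout replicate 3 read 5.96. Arntl and its repressor Nr1d2 deviated together (r = 0.65, rho = 0.38), and r was 0.29 without the 2 arrays farthest from the median of Arntl. Per2 and Cry1 had r = 0.53 (rho = 0.55), and 0.55 without the 2 arrays farthest from the median of Per2, whereas Per1 and Per2 had r = -0.099. Per1 and Cry2 had r = 0.45 (rho = 0.52), and without the 2 arrays farthest from the median of Per1 their r was 0.74, above that of Per3 and Clock. The lowest was that of Per3 and Cry2 (r = -0.53, rho = -0.55).

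**Figure D4:**
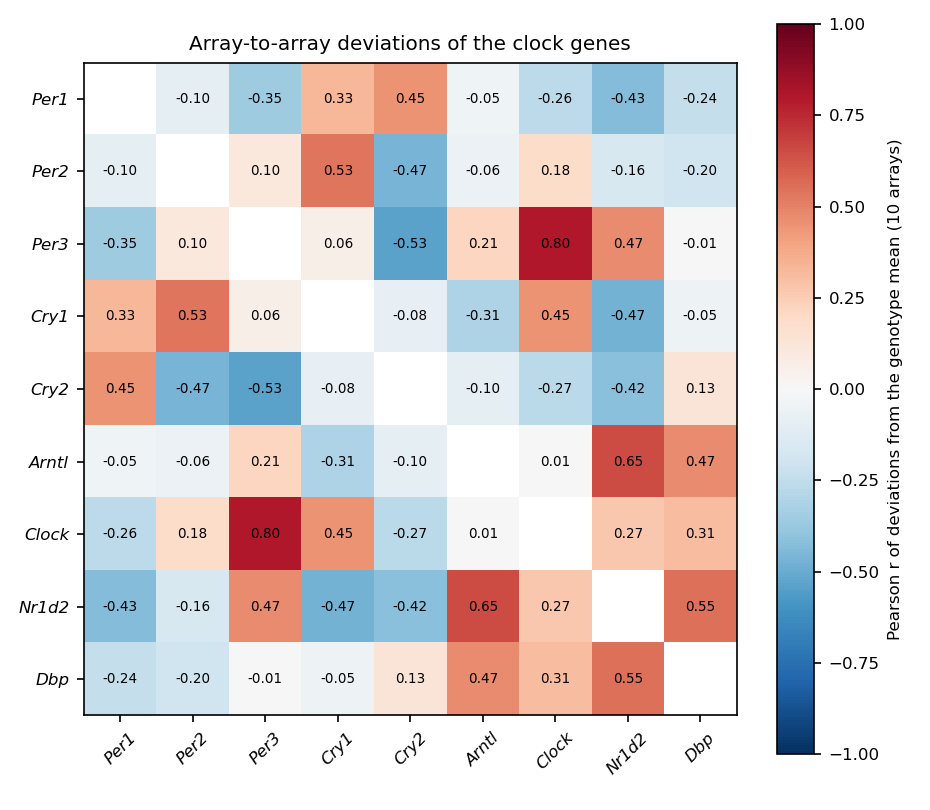
Pearson r between the array-to-array deviations of each pair of clock genes (both axes), after the genotype means were removed, over 10 arrays; red is positive and blue negative. The values run from -0.53 to 0.80. Arntl, Nr1d2 and Dbp were positive with each other, at 0.47 to 0.65. These were 0.22 to 0.29 without the 2 arrays farthest from the median of Arntl, or of Nr1d2 for its pair with Dbp. Each gene is read by the probe set that stood for it. Nr1d1, with no usable level, is left out.

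The genes whose deviations were most like those of Per1, among genes above the 40th percentile of mean level, were Mtm1, Sbk1 and Vopp1 (r = 0.93, 0.91 and 0.91, with rho = 0.75, 0.92 and 0.69). Without the 2 arrays farthest from the median of Per1 these r were 0.69, 0.76 and 0.60. For Dbp, read by probe set 1438211_s_at, they were Klhl24, Atp5h and Tnni3k (r = 0.95, 0.93 and 0.93, with rho = 0.89, 0.79 and 0.93). Without its 2 farthest arrays r was 0.83, 0.73 and 0.67, and the other Dbp probe set was not compared. An r above 0.8 was reached by 0.513% of the 10916 genes compared with Per1 and by 0.376% of the 10915 compared with Dbp. No clock gene was among the 6, and Per1 and Nr1d1, under the 40th percentile of level, could not be. The highest r with a clock gene was 0.45 for Per1 (with Cry2) and 0.55 for Dbp (with Nr1d2).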

How the data were processed

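RNA pooled from hearts of 1 genotype was labelled as biotinylated cRNA, per the labels. The deposited table holds log2 signals of probe sets; RMA and Partek are named, without versions, per the submitters' processing notes. RMA brings arrays to a common distribution, so a change in total RNA cannot be seen, and detection calls were not made. Array controls (64), probe sets with several symbols (932) and with none (9160) were left out of the gene table. Genotype was the only term of a model in limma 3.58.1 under R 4.3.3 (eBayes, no filter on low values), with Benjamini-Hochberg adjustment over 18193 genes, or over 45037 probe sets where probe sets are counted. The fit was tested on simulated data.

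Members and lists were chosen with earlier results of these data known. Named are all members, each list gene that passed, the brightest of each list that did not, and the 3 genes most like Per1 and Dbp; other clock-list genes are marked. Nothing in the labels says how pools were spread over litters, so p-values measure the spread between these pools. The number of arrays limits the precision. Same-numbered arrays of the genotypes were not treated as paired in the main fit.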

Additional observations from a re-analysis of the deposited data

Results flagged for a closer look

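Groups of 5 arrays were examined for 17 genes. These were the clock genes, Hccs, the list gene that passed and the brightest of each list that did not. In 6 of the 34 groups 1 array stood off from the other 4 by more than Dixon's 95% critical value of 0.71 of the range. Chance gives about 1 in 20 groups. Genes chosen after their values were seen, such as Fos, and the other probe sets of the 17 genes were not examined. Per1 in knockout replicate 1 read 3.08, with the nearest knockout at 3.75. Per2 in control replicate 5 read 3.57, with the nearest control at 4.38. Arntl read 5.85 in control replicate 1, under the next control at 6.18, and 6.59 in knockout replicate 2, above the next knockout at 6.35. Dbp in knockout replicate 4 read 8.36, with the nearest at 7.79. Bhlhe40 in knockout replicate 5 read 9.44, with the nearest at 8.82.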

How the results depend on the processing

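With 1 array left out, 105 to 1042 genes passed in place of 469, 0 to 1 clock genes were called lower and 0 to 1 higher. Over the same fits 0 to 1 clock-linked transcription factors and 0 to 1 clock-modifying enzymes passed, and the log2 change of Hccs ran from -0.60 to -0.48. Without the arrays numbered 3 of both genotypes 30 genes passed, with 0 clock genes called lower, 0 higher and 0 glucocorticoid-induced genes, and Hccs changed by -0.59 (adjusted p = 0.0714). Without knockout replicates 4 and 5, an alternative chosen after seeing the data, 14 genes passed, with 0, 0 and 0 in the same groups, Tsc22d3 differed by 0.034 and Hccs by -0.42 (adjusted p = 0.0554). With the replicate number as a block 36 genes passed, 0 clock genes were called lower, 0 higher and 0 glucocorticoid-induced genes passed, and Hccs changed by -0.55 (adjusted p = 0.0735). Over all alternatives the limma adjusted p of Hccs ran from 0.00976 to 0.0735. Deviations of same-numbered arrays correlated at -0.091 to 0.077 over all genes. This cannot show whether same-numbered pools shared litters or handling, which the labels do not give. At a threshold of 0.01, 14 genes passed, with 0, 0 and 0 in those groups. Above the median level 759 genes passed, 0 clock genes were called lower (Per1 is not among the genes kept) and 1 clock-modifying enzyme passed; above the lower quartile 2 clock genes were called lower and 1 enzyme passed. Array weights gave 945 genes, 2 clock genes called lower, 1 enzyme and 1 immediate early gene. Quantile normalization left 0 clock genes called lower, trend and robust moderation gave 1 enzyme, and the most variable probe set gave 1 clock-linked transcription factor. With the mean of its probe sets Nr1d2 differed by 0.013 and with the most variable one by 0.19, against -0.17. Clock moved further, to -0.26 with the mean of its probe sets and -0.76 with the most variable one, against -0.0068. With 1 array left out, Clock and Nr1d1 stayed near 0 and took either sign. With the mean of probe sets Per2 differed by 0.18 and Per3 by -0.12. Signs also turned for Jun with the mean of its probe sets (-0.0081) and for Pdk4 under quantile normalization (-0.00079) and without knockout replicates 1, 2 and 4 (values from -0.040 to 0.11 with 1 array left out). The cause was not tested; fewer arrays and fewer genes tested are part of the leave-out and filter settings by construction. Low signals limit Per1, Per2, Per3, Npas2, Junb and Nr1d1, which read near or within the range of Y-linked probe sets.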
